A study of Homo sapiens with 4 samples.

Results

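AP-1 is a dimeric transcription factor built from a FOS family protein and a JUN family protein, and 10 genes of this system were read from the RNA sequencing counts of Hey-A8 cells. They are the FOS family (FOS, FOSB, FOSL1, FOSL2), the JUN family (JUN, JUNB, JUND), the related stress factor gene ATF3, and the immediate early genes EGR1 and IER3. They were taken by gene symbol from the 58735 genes of the count table, in which each symbol had 1 row, and all 10 passed the filter on low counts that left 15313 genes for testing. Hey-A8 is a human ovarian cancer cell line. The shCON group (2 libraries) carried a control hairpin and is labelled as the negative control, and the shSPTLC2 group (2 libraries) is labelled as a knockdown of SPTLC2, a gene for part of the enzyme that starts sphingolipid synthesis. The labels conflict on how the cells were made: titles and design text describe a stable SPTLC2 knockdown, while the treatment protocol describes GIPZ hairpin plasmids against ZDHHC15 and a scrambled hairpin, transfected transiently and harvested at 36 h. Groups follow the titles, the number of hairpins or clones behind a group is not given in the sources used here, and p-values measure only the spread between these libraries, which may be technical.

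Immediate early genes are transcribed within minutes of a growth factor, serum or stress signal, without new protein synthesis, through factors such as SRF with its ELK partners and CREB. FOS family proteins cannot pair with themselves and bind DNA with a JUN partner, whereas JUN proteins can also pair with each other. The dimers bind the sequence TGANTCA, or with ATF partners TGACNTCA, and in cancer cells FOSL1 and JUN are known for invasion and protease genes.

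SPTLC2 counts were 871 and 884 in shCON but 587 and 662 in shSPTLC2, a log2 fold change of -0.52 ± 0.12 (SE). Its adjusted p was 0.0063 by the quasi-likelihood test of edgeR, adjusted by Benjamini and Hochberg's method, as are all adjusted p given from edgeR. That call ended without shSPTLC2 replicate 1 (adjusted p = 0.134 in edgeR) and without shSPTLC2 replicate 2 (adjusted p = 0.052). ZDHHC15 had 0 counts in every library, which allows up to 0.195 to 0.206 CPM. Library totals ran from 14464784 to 15084966 counts. Of 9 epithelial and ovarian markers, 6 exceeded 1 CPM in every library (KRT7, KRT8, KRT18, KRT19, PAX8 and WT1). EPCAM and MUC16 did not, and CDH1 had 0 counts. All 4 mesenchymal markers (VIM, CDH2, FN1 and ZEB1) exceeded 1 CPM. The 6 leukocyte markers summed to 0.274 to 0.404 CPM in shCON and 0.339 to 0.390 in shSPTLC2 with CD3E at 0 counts, and the 3 erythroid markers to at most 0.0679 CPM. The 4 endothelial markers summed to 59.8 to 61.3 CPM in shCON and 110.2 to 132.3 in shSPTLC2, and only CDH5 among them exceeded 1 CPM in every library. The part of that marker in the results below was not tested.

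RefSeq promoter windows on GRCh38.p14, the assembly that hg38 names, run from 250 bases before to 50 after a transcript start and were given for 8 of the 10 genes, in 9 windows. FOSL1 and IER3 had none. The windows of the 3 genes called lower (FOS, JUN and ATF3) and of EGR1 are shown, 5′ to 3′ on the gene's strand, the last because its fold change was the lowest after that of FOS. Capitals mark matches, on either strand, to the CRE core TGACG, to TGACNTCA, to TGANTCA or to the CArG box bound by SRF, searched as CC, then 6 bases of A or T, then GG. The TGACG core is part of TGACNTCA when N is G.
FOS, chr14:75278578-75278877, plus strand: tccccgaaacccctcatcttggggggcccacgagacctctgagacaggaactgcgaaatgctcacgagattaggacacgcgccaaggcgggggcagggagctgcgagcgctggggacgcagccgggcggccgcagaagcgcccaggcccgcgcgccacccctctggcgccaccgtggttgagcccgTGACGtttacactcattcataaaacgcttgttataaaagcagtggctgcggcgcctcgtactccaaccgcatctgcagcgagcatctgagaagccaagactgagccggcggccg
JUN, chr1:58783998-58784297, minus strand: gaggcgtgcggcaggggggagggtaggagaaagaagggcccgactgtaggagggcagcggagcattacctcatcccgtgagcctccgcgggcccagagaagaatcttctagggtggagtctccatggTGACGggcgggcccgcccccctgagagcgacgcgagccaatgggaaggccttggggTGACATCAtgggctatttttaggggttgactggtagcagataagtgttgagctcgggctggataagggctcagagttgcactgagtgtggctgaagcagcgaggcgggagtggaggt
ATF3, chr1:212565157-212565456, plus strand: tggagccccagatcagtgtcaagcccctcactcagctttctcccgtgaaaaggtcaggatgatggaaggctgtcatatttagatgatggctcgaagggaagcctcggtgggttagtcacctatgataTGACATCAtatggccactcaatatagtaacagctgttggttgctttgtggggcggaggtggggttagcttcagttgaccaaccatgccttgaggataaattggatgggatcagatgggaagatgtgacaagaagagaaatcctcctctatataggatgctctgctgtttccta
EGR1, chr5:138465229-138465528, plus strand: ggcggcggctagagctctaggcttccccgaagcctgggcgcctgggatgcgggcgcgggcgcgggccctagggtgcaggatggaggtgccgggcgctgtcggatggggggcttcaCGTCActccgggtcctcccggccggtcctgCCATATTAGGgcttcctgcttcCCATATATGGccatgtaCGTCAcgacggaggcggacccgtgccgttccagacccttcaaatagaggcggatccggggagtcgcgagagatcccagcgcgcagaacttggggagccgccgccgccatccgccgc
FOS held 1 TGACG, at -64 to -60 from the start. JUN held TGACATCA at -67 to -60 and a TGACG at -123 to -119, and ATF3 held TGACATCA at -123 to -116. A further ATF3 window (chr1:212614768-212615067) held none of the 4 motifs. EGR1 held 2 CArG boxes, at -105 to -96 and -83 to -74, and 2 TGACG cores on the other strand, and no other window of these genes held a CArG box. FOSB and JUNB held 1 TGACG each. JUND held TGACGTCA and a further TGACG, and FOSL2 held 2 TGACG and TGACTCA at 5 to 11 after the start. Among all 35116 promoter windows of this length, 24.6% held TGACG, 7.72% TGACNTCA, 7.71% TGANTCA and 1.29% a CArG box. A match, or the lack of one, describes the letters of the window only. Sites more than 250 bases before the start were not searched.

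Levels between genes were compared on the authors' FPKM, which divide by gene length. FOSL1, which encodes the FOS family protein FRA-1, stood highest with 361.7 and 331.6 FPKM in shCON and 320.1 and 302.0 in shSPTLC2, and ranked 81 among all genes by mean FPKM. JUN followed with 244.1 and 242.7 FPKM in shCON and 172.9 and 191.1 in shSPTLC2 (rank 144), and IER3 with 157.7 and 133.8 against 114.1 and 125.5 (rank 251). FOSL2, which encodes FRA-2, had 42.7 to 49.4 FPKM over the 4 libraries. JUNB (30.9 to 38.3 FPKM) and JUND (25.5 to 32.7) overlapped in level. ATF3 had 3.48 to 5.36 FPKM. EGR1 (0.514 to 1.70 FPKM), FOS (0.415 to 1.23) and FOSB (0.349 to 0.499) were lowest, and each of these overlapped the next in that order. FOSL1 and FOS, members of 1 family, thus lay far apart, FOS ranking 13169 by mean FPKM. FOSB, of the same family, ranked 15609.

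**Figure D1:**
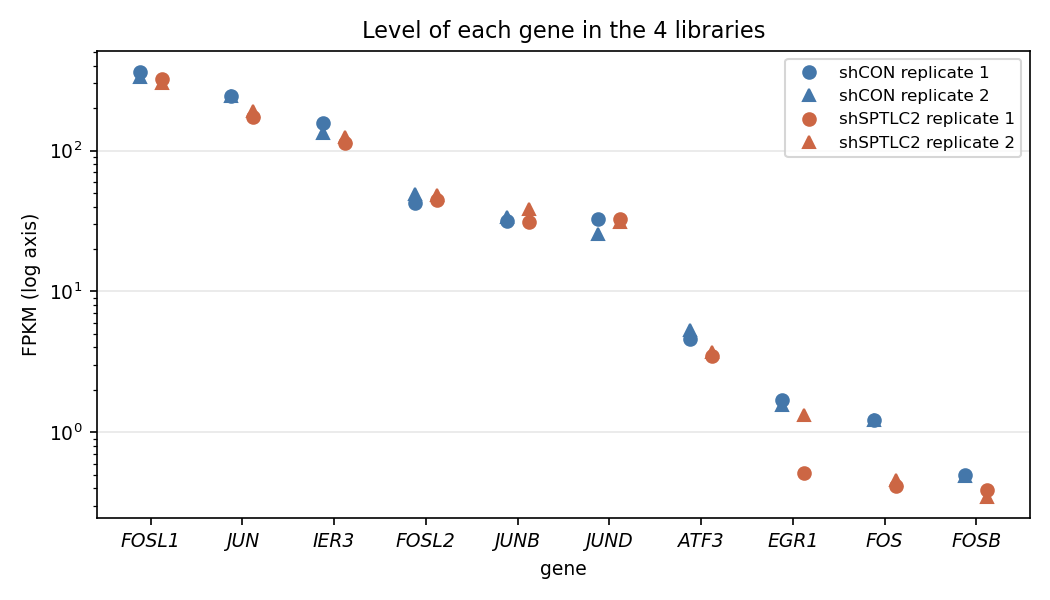
FPKM of the 10 genes (log axis) in each of the 4 libraries, genes ordered by mean FPKM, with blue for shCON, orange for shSPTLC2, circles for replicate 1 and triangles for replicate 2. FOSL1 and JUN sit at or above 172.9 FPKM in every library, while FOS and FOSB sit at or below 1.23 FPKM.

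Transcripts of FOS, JUN and ATF3 were called lower in shSPTLC2, and no member was called higher (3 lower, 0 higher, 7 not called of 10). Over all tested genes 19.4% were called, 9.00% lower and 10.4% higher, so 30.0% of 10 genes called lower stands beside 9.00%. The 10 genes and the lists below were chosen with earlier results of these data known, so such shares are description only. At an unadjusted p under 0.05 in edgeR, 5 of the 10 were lower and 0 higher. The share of all tested genes at that threshold is not given here, so this count cannot be set beside the 9.00%. DESeq2 and limma voom also called 0 higher by adjusted p. The median log2 fold change of the 10 was -0.34, beside 0.005 for all tested genes. Of the 10 genes, 7 had a log2 fold change below 0, beside 49.5% of all tested genes. In 7 genes both shSPTLC2 libraries had lower CPM than both shCON libraries, beside 30.2% of all tested genes, or 61.5% with groups that did not overlap in either direction. In bulk RNA, fewer expressing cells and less RNA per cell cannot be told apart. The calls in this set were not kept in every fit. Calls over all tested genes also changed in fits that leave 1 library in a group. Without shSPTLC2 replicate 1 the log2 fold changes were -1.40 for FOS, -0.34 for JUN and -0.40 for ATF3. Without shSPTLC2 replicate 2 they were -1.545, -0.48 and -0.51.

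FOS encodes the founding FOS family subunit, whose transcript is brief and signal driven (ENSG00000170345, hg38 chromosome 14, 75278774 to 75282230, 4 exons). Its reads numbered 59 and 58 in shCON but 20 and 23 in shSPTLC2 (replicate 1 first, here and below). These equal 3.97 and 3.97 CPM (counts scaled to the library total times its TMM normalization factor) against 1.36 and 1.50 CPM. Both shSPTLC2 libraries lay below both shCON libraries, and the exact 95% Poisson intervals, which cover counting error only, reached up to 2.10 and 2.24 CPM in shSPTLC2 and down to 3.02 CPM in both shCON libraries. Its mean was 3.97 ± 0.0011 CPM (SD, n = 2) in shCON and 1.43 ± 0.098 in shSPTLC2, 2.77-fold lower. The log2 fold change was -1.47 ± 0.32 (SE), with an adjusted p of 0.0049 in edgeR. FOS was called in 13 of 14 alternative fits (adjusted p of 4.5e-04 to 0.072), the exception being the fit without shSPTLC2 replicate 1 (-1.40, adjusted p = 0.072).

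FOSB and FOSL2 were not called. FOSB, a FOS relative induced by the same signals (chromosome 19, 45467995 to 45475179), had 2.76 and 2.74 CPM in shCON and 2.17 and 1.95 CPM in shSPTLC2. All of these values are 41 counts or fewer, and the 95% interval of its log2 fold change (-0.42) ran from -1.10 to 0.27. FOSB overlaps, on the opposite strand, ERCC1, a DNA repair gene with 1021 to 1106 counts per library and a log2 fold change of -0.03 ± 0.11, and without strand reads of the pair cannot be told apart. FOSL1 (chromosome 11, 65892049 to 65900573) had 680.3 and 629.2 CPM in shCON and 610.0 and 573.2 in shSPTLC2, values that do not overlap but lie close. Its log2 fold change was -0.15 ± 0.11, with a 95% interval of -0.38 to 0.08 (adjusted p = 0.37, edgeR). FOSL2 (chromosome 2, 28392448 to 28417312) had 304.7 and 355.5 CPM in shCON and 322.9 and 349.2 in shSPTLC2. Its groups overlapped, and its log2 fold change of 0.03 had a 95% interval of -0.21 to 0.26. FOSL2 turned negative without shCON replicate 1 and without shSPTLC2 replicate 2.

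JUN encodes c-Jun, the partner that forms AP-1 with FOS family proteins and binds its own promoter as a dimer with ATF2 (ENSG00000177606, chromosome 1, 58780788 to 58784327, 1 exon). It had 12797 and 12613 counts in shCON and 9110 and 10465 in shSPTLC2, or 861.4 and 864.0 against 618.2 and 680.4 CPM. The shCON libraries were close to each other and both lay above both shSPTLC2 libraries. The mean was 862.7 ± 1.83 CPM (SD, n = 2) in shCON and 649.3 ± 44.0 in shSPTLC2, 1.33-fold lower. On the log2 scale the fold change was -0.41 ± 0.11 (SE), with an adjusted p of 0.017 in edgeR. JUN was called in 12 of 14 alternatives (5.2e-04 to 0.27), and not without shSPTLC2 replicate 1 (-0.34, adjusted p = 0.27 in edgeR) or shSPTLC2 replicate 2 (-0.48, adjusted p = 0.101).

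JUNB and JUND, JUN relatives that activate AP-1 sites less strongly than JUN, were not called. JUNB (chromosome 19, 12791496 to 12793315, 1 exon) had 57.1 and 61.9 CPM in shCON and 56.8 and 70.0 in shSPTLC2. Its groups overlapped, and the 95% interval of its log2 fold change (0.09) was -0.17 to 0.36. JUNB overlaps HOOK2 on the opposite strand. HOOK2, a microtubule linker gene, had 175 and 184 counts in shCON and 375 and 404 in shSPTLC2 and rose by a log2 fold change of 1.08 ± 0.14 (adjusted p = 1.8e-04, edgeR), so JUNB and HOOK2 reads on the shared stretch are uncertain. JUND (chromosome 19, 18279760 to 18281622, 1 exon) had 60.7 and 47.8 CPM in shCON and 61.4 and 57.9 in shSPTLC2. Its groups also overlapped, and the interval of its log2 fold change (0.14) was -0.14 to 0.41. Transcripts of JUND and JUNB had the highest GC content of the 10, 69.7% and 64.9%. With a GC-content offset both changed sign, to -0.25 for JUND and -0.17 for JUNB, and neither was called.

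**Figure D2:**
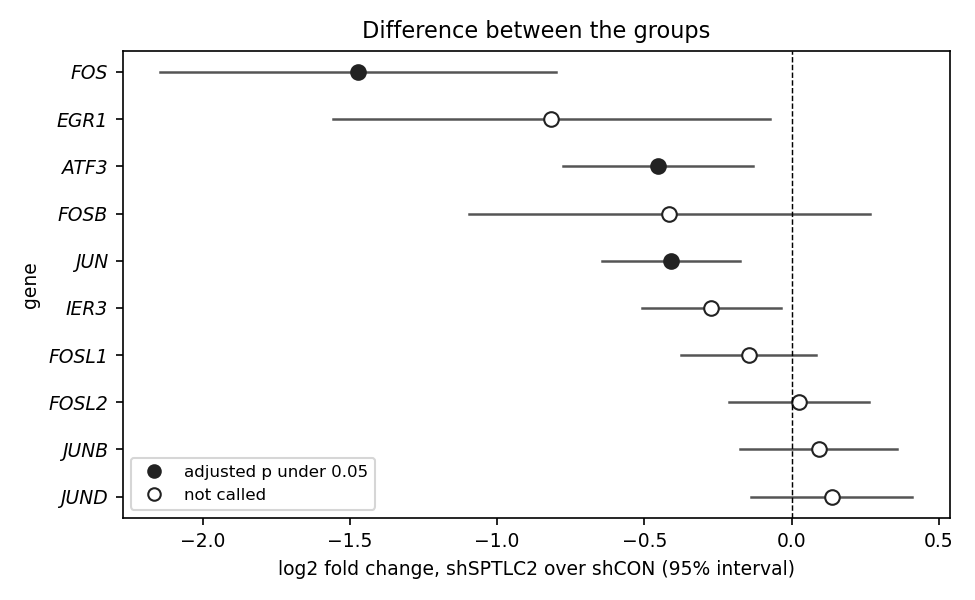
Log2 fold change of each gene, shSPTLC2 over shCON, with its 95% interval; filled points have an adjusted p under 0.05 in edgeR and open points were not called. FOS, ATF3 and JUN are filled and lie left of 0, while FOSL2, JUNB and JUND lie within 0.14 of 0.

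The make-up of each family was described by the share of its summed FPKM, with no test, since 2 against 2 libraries cannot go below p = 0.33 in a two-sided exact permutation test. FOSL1 made up 89.1% and 86.6% of the FOS family in shCON and 87.6% and 86.0% in shSPTLC2. FOSL2 made up 10.5% and 12.9% in shCON and 12.2% and 13.8% in shSPTLC2. FOSL1 and FOSL2 shares overlapped between the groups. FOS made up 0.303% and 0.319% in shCON and 0.114% and 0.131% in shSPTLC2, so the FOS transcript was a minor part of its family in all 4 libraries. JUN made up 79.2% and 80.4% of the JUN family in shCON and 73.1% and 73.4% in shSPTLC2, with no overlap. JUNB made up 10.2% and 11.2% against 13.1% and 14.7%. JUND made up 10.6% and 8.45% in shCON against 13.8% and 11.9%. These shares carry no GC-content correction, under which the fold changes of JUNB and JUND changed sign. JUNB reads on the stretch shared with HOOK2 are also uncertain. The summed FPKM of the JUN family was 308.3 and 302.1 in shCON and 236.5 and 260.2 in shSPTLC2, and that of the FOS family 406.1 and 382.7 against 365.6 and 351.3.

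**Figure D3:**
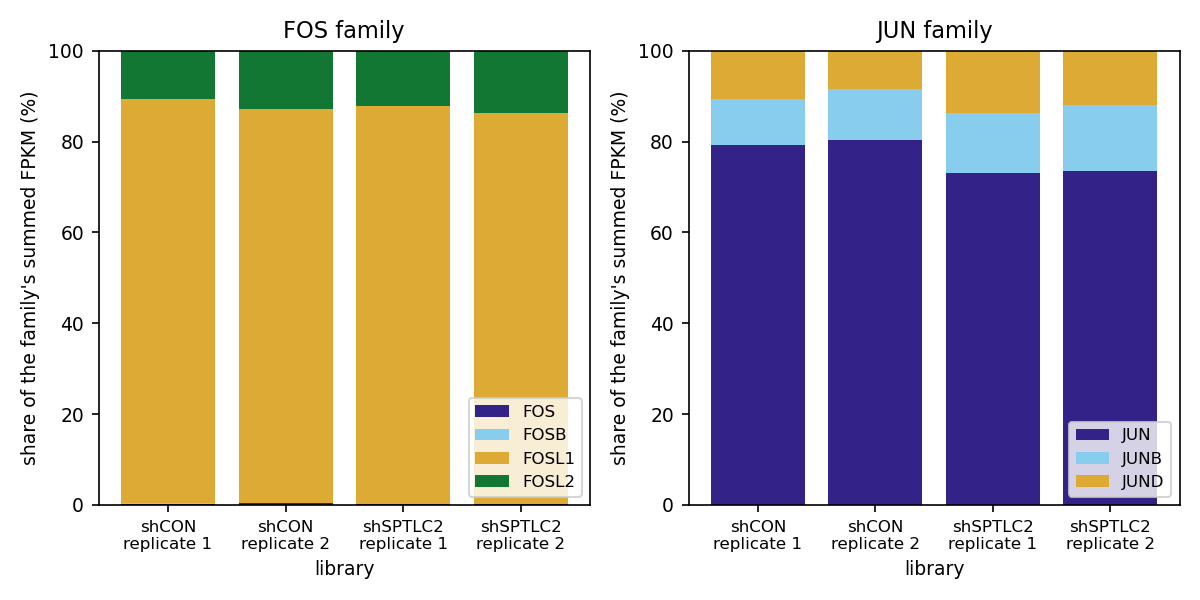
Stacked bars of the share of each gene in the summed FPKM of the FOS family (left) and JUN family (right), with 1 bar per library. FOSL1 fills over 85% of the FOS family bar in every library, and the JUN segment is about 79% to 80% in shCON and 73% in shSPTLC2.

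ATF3 encodes a stress-induced factor that pairs with JUN proteins and often represses its targets (ENSG00000162772, chromosome 1, 212565334 to 212620777). It had 275 and 318 counts in shCON and 209 and 234 in shSPTLC2, or 18.5 and 21.8 against 14.2 and 15.2 CPM. Both shSPTLC2 libraries lay below both shCON libraries. The mean was 20.1 ± 2.31 CPM (SD, n = 2) in shCON and 14.7 ± 0.729 in shSPTLC2. The log2 fold change was -0.45 ± 0.15 (SE), and its adjusted p of 0.047 in edgeR lay close to the threshold of 0.05. ATF3 was called in 5 of 14 alternatives (0.0053 to 0.29), its log2 fold change being -0.58 to -0.34 in all of them. Without shSPTLC2 replicate 1 ATF3 was not called (adjusted p = 0.29 in edgeR), nor without shSPTLC2 replicate 2 (0.159) or shCON replicate 2 (0.174).

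EGR1, a zinc finger factor induced through SRF (ENSG00000120738, chromosome 5, 138465490 to 138469315), had 79 and 72 counts in shCON and 24 and 64 in shSPTLC2. In CPM these are 5.32 and 4.93 against 1.63 and 4.16. The groups did not overlap, but the 2 shSPTLC2 libraries differed beyond counting error, with exact 95% Poisson intervals of 1.04 to 2.42 CPM and 3.20 to 5.31 CPM. EGR1 was not called, with a log2 fold change of -0.82 ± 0.35 (SE; adjusted p = 0.116, edgeR). The size rested on shSPTLC2 replicate 1: the value was -0.30 without it (adjusted p = 0.63 in edgeR) and -1.65 without shSPTLC2 replicate 2 (adjusted p = 0.019). EGR1 was called in 5 of 14 alternatives.

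IER3, an early response gene linked to cell survival (ENSG00000137331, chromosome 6, 30743199 to 30744554), had 213.1 and 182.5 CPM in shCON and 156.3 and 171.1 in shSPTLC2. The groups did not overlap, with 182.5 and 171.1 CPM the closest pair. IER3 was not called, with a log2 fold change of -0.27 ± 0.11 (SE; adjusted p = 0.097, edgeR) and a 95% interval of -0.51 to -0.04. It was called in 3 of 14 alternatives: with a GC-content offset (-0.37, adjusted p = 0.033), with the replicate number as a block beside that offset (adjusted p = 0.024) and without shCON replicate 2 (-0.39, adjusted p = 0.0038, all in edgeR).

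**Figure D4:**
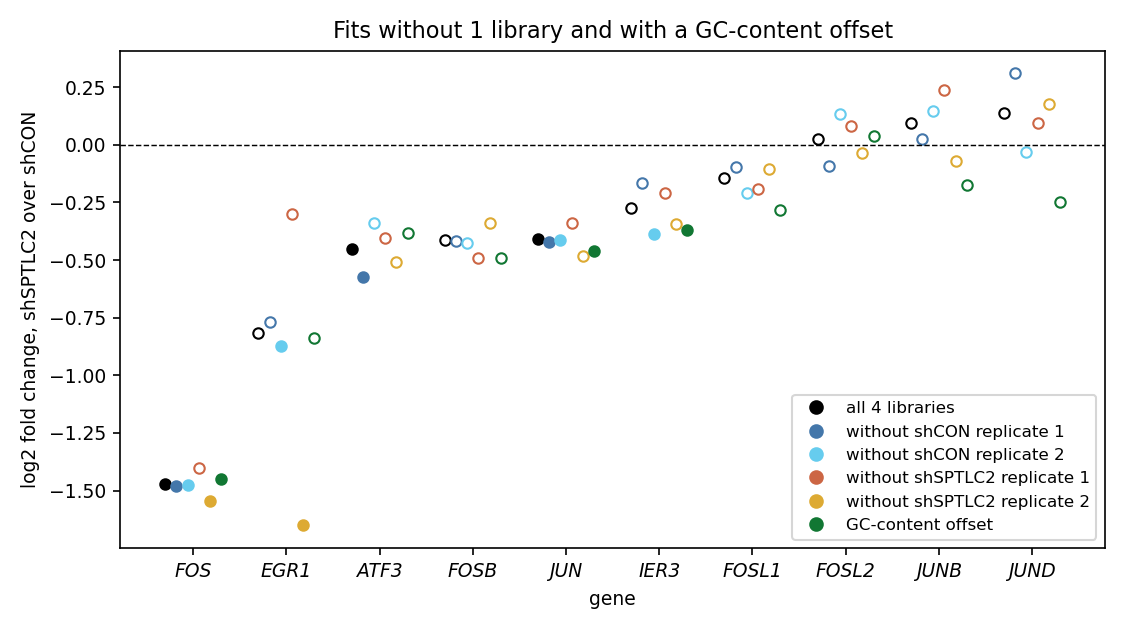
Log2 fold change of each gene, shSPTLC2 over shCON, in the fit to all 4 libraries, in the 4 fits that leave out 1 library and with a GC-content offset; filled points have an adjusted p under 0.05. FOS lies between -1.55 and -1.40 in all 6 fits, EGR1 runs from -1.65 to -0.30, and FOSL2, JUNB and JUND have points on either side of 0.

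Other basic leucine zipper genes that can pair with AP-1 proteins gave calls both ways. Of 15 listed, 11 were tested, with 1 called higher, 2 lower and 8 not called (27.3% called, beside 19.4% of all genes; median log2 fold change -0.15). ATF2, the JUN partner at TGACNTCA sites, rose from 45.3 and 42.7 CPM in shCON to 64.0 and 65.2 in shSPTLC2 (0.55 ± 0.12, SE; adjusted p = 0.0040, edgeR). JDP2, a JUN dimerization protein that represses AP-1, fell from 50.8 and 50.9 CPM to 40.6 and 32.9 (-0.47 ± 0.13; adjusted p = 0.020, edgeR). The small MAF genes MAFG (-0.07 ± 0.11) and MAFF (-0.27 ± 0.11), which had the highest mean CPM of this list, were not called. Leaving out shSPTLC2 replicate 1 ended the calls of ATF2 (adjusted p = 0.069 in edgeR) and JDP2 (0.061), and so did leaving out shSPTLC2 replicate 2 (0.060 for ATF2 and 0.27 for JDP2). The number of calls in this list changed in fits that leave 1 library in a group, as it did over all tested genes.

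Other immediate early genes were also called in both directions. Of 39 listed, 34 were tested, with 3 higher, 9 lower and 22 not called (35.3% called, beside 19.4%; median log2 fold change -0.17). The phosphatase regulator PPP1R15A fell from 220.2 and 257.4 CPM in shCON to 129.5 and 117.2 in shSPTLC2 (-0.95 ± 0.11, SE; adjusted p = 7.0e-05, edgeR). The zinc finger factor gene KLF4 fell from 132.3 and 116.5 CPM to 70.4 and 65.3 (-0.87 ± 0.11). MYC fell from 672.6 and 596.0 CPM to 363.7 and 372.7 (-0.78 ± 0.11). In the other direction IER5L rose from 14.6 and 10.5 CPM to 38.7 and 32.9 (1.51 ± 0.16; adjusted p = 3.7e-05, edgeR). The other called rises, named after their values were seen, were BTG2 (1.21 ± 0.17), an antiproliferative gene, and the nuclear receptor gene NR4A1 (1.05 ± 0.30). The genes with the highest mean CPM, CYR61 (-0.26 ± 0.12), a matricellular protein gene, and the kinase gene PLK2 (-0.18 ± 0.11), were not called. Here too, the number of calls changed in fits that leave 1 library in a group, as it did over all tested genes. PPP1R15A, KLF4, MYC, IER5L and BTG2 were called in all 14 alternatives. NR4A1 was called in 10 of 14, and not in DESeq2 (adjusted p = 0.104) or, in edgeR, without shCON replicate 2 (adjusted p = 0.083), shSPTLC2 replicate 1 (0.093) or shSPTLC2 replicate 2 (0.18).

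Few of the kinases and factors that act on these promoters were called. Of 26 tested, 2 rose, 0 fell and 24 were not called (7.69% called, beside 19.4%; median log2 fold change 0.07). The count of 0 lower in edgeR was 1 at an unadjusted p under 0.05, and 0 by adjusted p in DESeq2 and in limma voom. CREB1, which encodes the factor of cAMP response elements, rose from 35.1 and 35.1 CPM to 50.1 and 54.9 (0.58 ± 0.12, SE; adjusted p = 0.0039, edgeR). RPS6KA1, the ribosomal S6 kinase downstream of ERK, rose from 20.3 and 16.2 CPM to 27.1 and 30.6 (0.66 ± 0.15; adjusted p = 0.0063, edgeR). SRF itself had a log2 fold change of 0.20 ± 0.12 and was not called. ELK3 (-0.26 ± 0.12), an SRF partner, and the ERK kinase gene MAP2K2 (0.35 ± 0.13), those with the highest mean CPM, were not called. Calls in this list changed in fits that leave 1 library in a group, as they did over all tested genes. CREB1 lost its call without shSPTLC2 replicate 2 (adjusted p = 0.079 in edgeR), and RPS6KA1 without shSPTLC2 replicate 1 (0.053) or shSPTLC2 replicate 2 (0.096). Without shCON replicate 2, some genes of this list were called lower.

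Genes known as AP-1 targets were called more in the lower direction. Of 32 listed, 27 were tested, with 3 higher, 9 lower and 15 not called (44.4% called, beside 19.4%; median log2 fold change -0.26). This list was chosen with earlier results of these data known, so the shares only describe it. HBEGF, an EGF receptor ligand gene, fell from 133.8 and 138.9 CPM in shCON to 43.2 and 46.6 in shSPTLC2 (-1.60 ± 0.11, SE; adjusted p = 1.0e-06, edgeR). PLAU, the urokinase gene, fell from 1579.9 and 1532.7 CPM to 807.8 and 802.4 (-0.95 ± 0.11). The osteopontin gene SPP1 fell from 38.03 and 35.7 CPM to 19.7 and 16.5 (-1.03 ± 0.14). The 3 called rises, named after their values were seen, were the cytokine genes IL11 (0.73 ± 0.15) and CXCL8 (0.40 ± 0.13) and the heme oxygenase gene HMOX1 (0.64 ± 0.13). HBEGF, PLAU and SPP1 were called in all 14 alternatives. Among these targets the number of calls, higher and lower, changed in fits that leave 1 library in a group, as it did over all tested genes. CXCL8 was called in 8 of 14 alternatives. Besides the fit without shSPTLC2 replicate 2 (adjusted p = 0.53 in edgeR), its call ended without shSPTLC2 replicate 1 (0.066), without the robust option (0.058), with a GC-content offset (a log2 fold change of 0.24, adjusted p = 0.21) and with the replicate block beside that offset (adjusted p = 0.26). In limma voom its adjusted p was 0.0505.

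**Figure D5:**
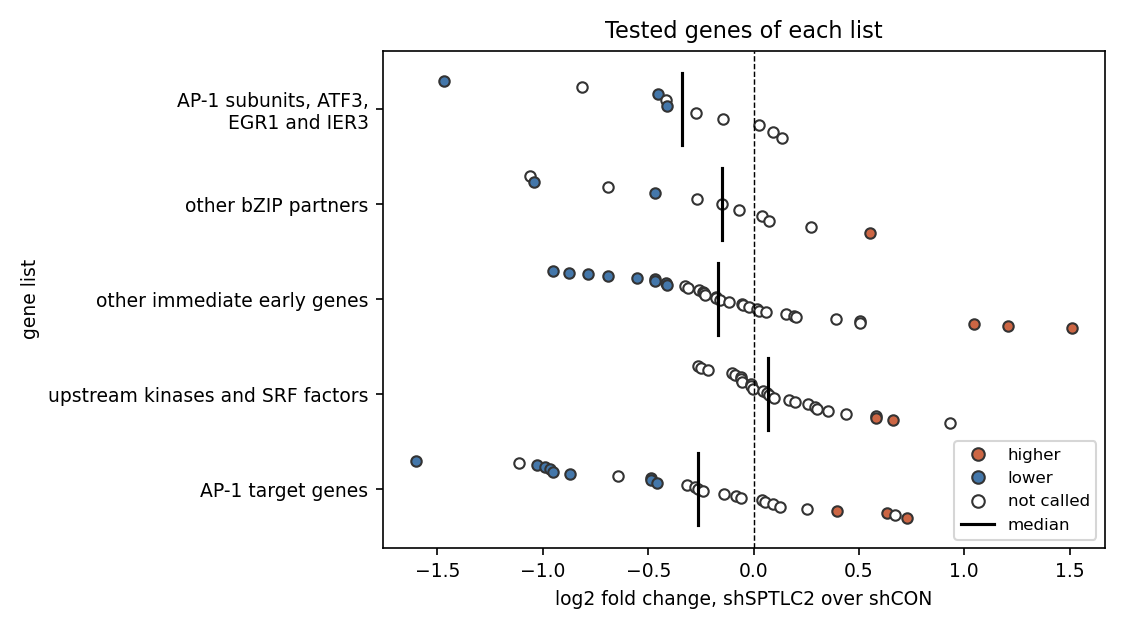
Log2 fold change, shSPTLC2 over shCON, of the tested genes of the 10-gene set and of the 4 other lists, with blue points called lower, orange points called higher, open points not called and a bar at each list's median. The median is -0.34 in the 10-gene set, -0.26 among the AP-1 targets and 0.07 among the upstream genes.

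FOS had the smallest adjusted p of the 10 genes, and the coding genes nearest to it in pattern were sought by the Euclidean distance of centred log2 CPM over the 4 libraries, among 12546 tested coding genes. The nearest were ALAS1, the first enzyme gene of heme synthesis (distance 0.074), the secreted pentraxin gene PTX3 (0.108) and the zinc finger gene ZKSCAN2 (0.110). ALAS1 had 157.5 and 154.3 CPM in shCON and 56.3 and 65.3 in shSPTLC2, and PTX3 had 281.0 and 292.2 against 110.9 and 122.4. ZKSCAN2 had 13.3 and 14.3 CPM against 4.61 and 5.14. A distance over 4 libraries mostly reflects the difference between the groups. The log2 CPM carried a prior count of 2, and FOS had 59 counts or fewer in each library. Counting error in FOS thus leaves the order of these genes uncertain.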

How the data were processed

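RNA was sequenced from 2 shCON and 2 shSPTLC2 libraries of Hey-A8 cells with the NEBNext Ultra kit, per the labels' protocols. The authors deposited read counts, which are whole numbers and not normalized, and the deposited FPKM equal count over gene length times a factor for each library, within a relative 1e-09. HISAT2, StringTie, SAMtools and hg38 are named per the submitters' processing notes. How reads were counted, and with which strand setting, is not given in the sources used here. All 58735 genes matched GENCODE 29.

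Counts of all 4 libraries were fitted in R 4.3.3 with edgeR 4.0.16: filterByExpr (minimum count 10, minimum total 15), TMM, robust quasi-likelihood F test, no covariates, Benjamini-Hochberg over 15313 genes, threshold 0.05. CPM use library totals times TMM factors. The SE divides the size of the log2 fold change by the root of the F statistic, and 95% intervals use the fit's degrees of freedom. The biological coefficient of variation was 10.1%. Libraries of a group differed beyond sampling noise (chi-square p under 0.05 in 36.7% of shCON and 28.4% of shSPTLC2 genes), so none is a library deposited again. The fit was also run on simulated data that took their spread from the fit itself. The outcome is not given here. Alternatives included DESeq2 1.42.0 and limma 3.58.1 (voom). GC content was that of the longest GENCODE 29 transcript (15308 tested genes), and its offset a lowess curve per library (span 0.3). MKL1 and MKL2 were matched by RefSeq synonym.

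The members and lists were chosen with earlier results of these data known. The naming rule took all 10 members, SPTLC2 and ZDHHC15, in each other list at most 4 called genes by adjusted p and 2 by mean CPM, and the 3 genes nearest in pattern to the member with the smallest adjusted p. SRF and the genes overlapping members lay outside that rule. A few genes that the rule names are not reported here.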

Additional observations from a re-analysis of the deposited data

How the results depend on the processing

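All 4 libraries gave 1593 genes called higher and 1378 lower. DESeq2 called 972 higher (1006 lower). Of all calls, 53.6% were higher with TMM and 65.1% when scaled to library totals, which raised the median log2 fold change by 0.054. There FOS and JUN were called and ATF3 was not. Leaving out 1 library in turn gave 413 to 1977 higher and 227 to 2050 lower over all genes, 0 to 4 members lower, 0 to 1 higher and 0 to 3 lower among bZIP partners, 2 to 5 higher and 3 to 12 lower among other immediate early genes, 0 to 5 higher and 0 to 2 lower among upstream genes, and 0 to 4 higher and 3 to 13 lower among AP-1 targets. The upstream list had 1 gene lower with the GC-content offset and 1 with the replicate block and that offset. Members that changed sign, none of them called, were FOSL2 without shCON replicate 1 (-0.090) and without shSPTLC2 replicate 2 (-0.03), JUNB with the GC-content offset (-0.17), with the block and offset (-0.18) and without shSPTLC2 replicate 2 (-0.069), and JUND with the offset (-0.25), with the block and offset (-0.24) and without shCON replicate 2 (-0.032). Over the fits without 1 library, FOSL2 ran from -0.090 to 0.136, JUNB from -0.069 to 0.236, JUND from -0.032 to 0.310 and MAFG from -0.175 to 0.027. The causes were not tested, beyond the smaller number of samples in the fits that leave out a library, where a group of 1 is assumed to vary like the other. ATF3 lost its call under 9 of the 14 alternatives, DESeq2 (adjusted p = 0.143), limma voom (0.059) and the fit without the robust option (0.052) among them. By CPM in place of FPKM, FOSL1 made up 66.03% (shCON) and 63.5% (shSPTLC2) of the FOS family and JUN 88.4% and 84.1% of the JUN family, because CPM do not divide by gene length. With the replicate block, 4 members were lower (EGR1 in addition, adjusted p = 0.033 in edgeR), and 1776 genes were higher and 1531 lower. Equal replicate numbers are not said to mark a shared day, and deviations of such libraries had a correlation of -0.013. FOS, FOSB and EGR1, at 79 counts or fewer, are limited by depth.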
